A study of Mus musculus with 2 samples.

Results

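Genes that encode the alpha and beta chains of leukocyte integrins were examined in single cells from the fetal mouse lung. They were the rows named Itgae, Itga4, Itgb7, Itgal, Itgb2, Itgam, Itgax, Itga2, Itga2b and Itgb3, 10 of the 32285 genes in the deposited matrix, and each name matched a single row. The genes were chosen by name and not by any measured value. The mice were wild type throughout. Pregnant mothers, 9 weeks old, drank water with dexamethasone (DEX), a synthetic glucocorticoid, at 1.3 µg/ml from gestation day 12, or control water with PBS, and the fetal lungs were taken on day 18. There were 2 DEX litters and 2 PBS litters, with 8 and 9 pooled fetuses in DEX-1 and DEX-2 and 5 and 8 in PBS-1 and PBS-2, so that the litter, not the fetus or the cell, was the replicate. The sort kept live CD45+ST2+ cells without lineage markers, and all 4 litters were run together in 1 droplet library with a hashtag antibody for each litter.

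The sort itself touches 2 of the 10 genes. The lineage antibodies used on fetal cells included CD11b and CD11c, the proteins of Itgam and Itgax. The sort was thus meant to remove cells that carried these proteins before sequencing. Cells that it should have excluded, epithelial-like cells among them, were still found. The values of Itgam and Itgax given here describe what remained after that gate.

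Of 10648 barcodes, 10409 passed the filters on genes and mitochondrial reads, and 7268 carried the hashtag of 1 litter, from 1737 to 1890 in each litter with litter medians of 7458 to 8325 UMIs per cell. Clusters were named from marker genes, with the 10 integrin genes left out of the clustering. ILC2-like cells (2078 cells, with Gata3, Il7r, Rora and Areg among the markers) and mast-like cells (2321 cells, Cma1, Tpsb2, Cpa3 and Kit) were the 2 large classes. Basophil-like cells (482 cells, Mcpt8, Prss34 and Cd200r3) and mast or basophil progenitor-like cells (418 cells, led by Gzmb and Scin) were smaller. Myeloid cells did not gather into a cluster that met the naming limits, and 2 clusters are therefore called by their leading genes, an Ear2, Wfdc17 and Mcemp1 cluster of 187 cells and an S100a9, S100a8 and C1qb cluster of 63 cells. A Prtn3, Mpo and Car1 cluster of 228 cells was likewise left unnamed. Epithelial-like cells, 447 in number, in which most of these genes have no known role, served as a comparison for low levels. Free RNA in the droplets was not measured, and for some genes other classes lay below the epithelial-like level.

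Integrins are cell surface receptors built from an alpha chain and a beta chain, and the pair decides the ligand. The beta7 chain joins alphaE to bind E-cadherin on epithelium, or alpha4 to bind MAdCAM-1 in mucosal vessels, and alpha4 can also join beta1 to bind VCAM-1. The beta2 chain joins alphaL, alphaM or alphaX in the receptors known as LFA-1, Mac-1 and CD11c/CD18, which bind ICAMs, complement fragments and fibrinogen. The alpha2 chain joins beta1 to bind collagen, alphaIIb joins beta3 in the fibrinogen receptor of platelets and also marks early blood progenitors and mast cells, and beta3 can join alphav to bind vitronectin.

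Levels are given as CPM, counts per 1000000 UMIs summed over all cells of a class in a litter, and were compared within a gene and never between genes. Because classes were formed from the same cells, differences between classes are described and carry no p-value. A share of cells with a UMI was read after each cell was thinned to 2000 UMIs, since cells of the progenitor-like class were deep (median 15685 UMIs) and those of the mast-like class were shallower (median 6341 UMIs). In all, 325 cells under that depth were left out of the shares, 234 of them mast-like, 26 ILC2-like, 13 progenitor-like, 7 basophil-like and 4 epithelial-like.

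Between the 2 large classes the integrins parted by chain. The litter ranges of ILC2-like and mast-like cells did not overlap for 8 of the 10 genes, beside 57.3% of all 14535 genes compared in the same way. Itgae, Itga4, Itgal, Itgb2 and Itgb3 were higher in ILC2-like cells, Itgam, Itgax and Itga2b were higher in mast-like cells, and Itgb7 and Itga2 overlapped. Against progenitor-like cells, 8 of the 9 genes with enough UMIs did not overlap with ILC2-like cells (39.2% of all genes), and against basophil-like cells 6 of 9 did not (50.5%). Mast-like and progenitor-like cells were separated by 3 of 10 genes (41.4%), and mast-like and basophil-like cells by 6 of 10 (43.6%).

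**Figure D1:**
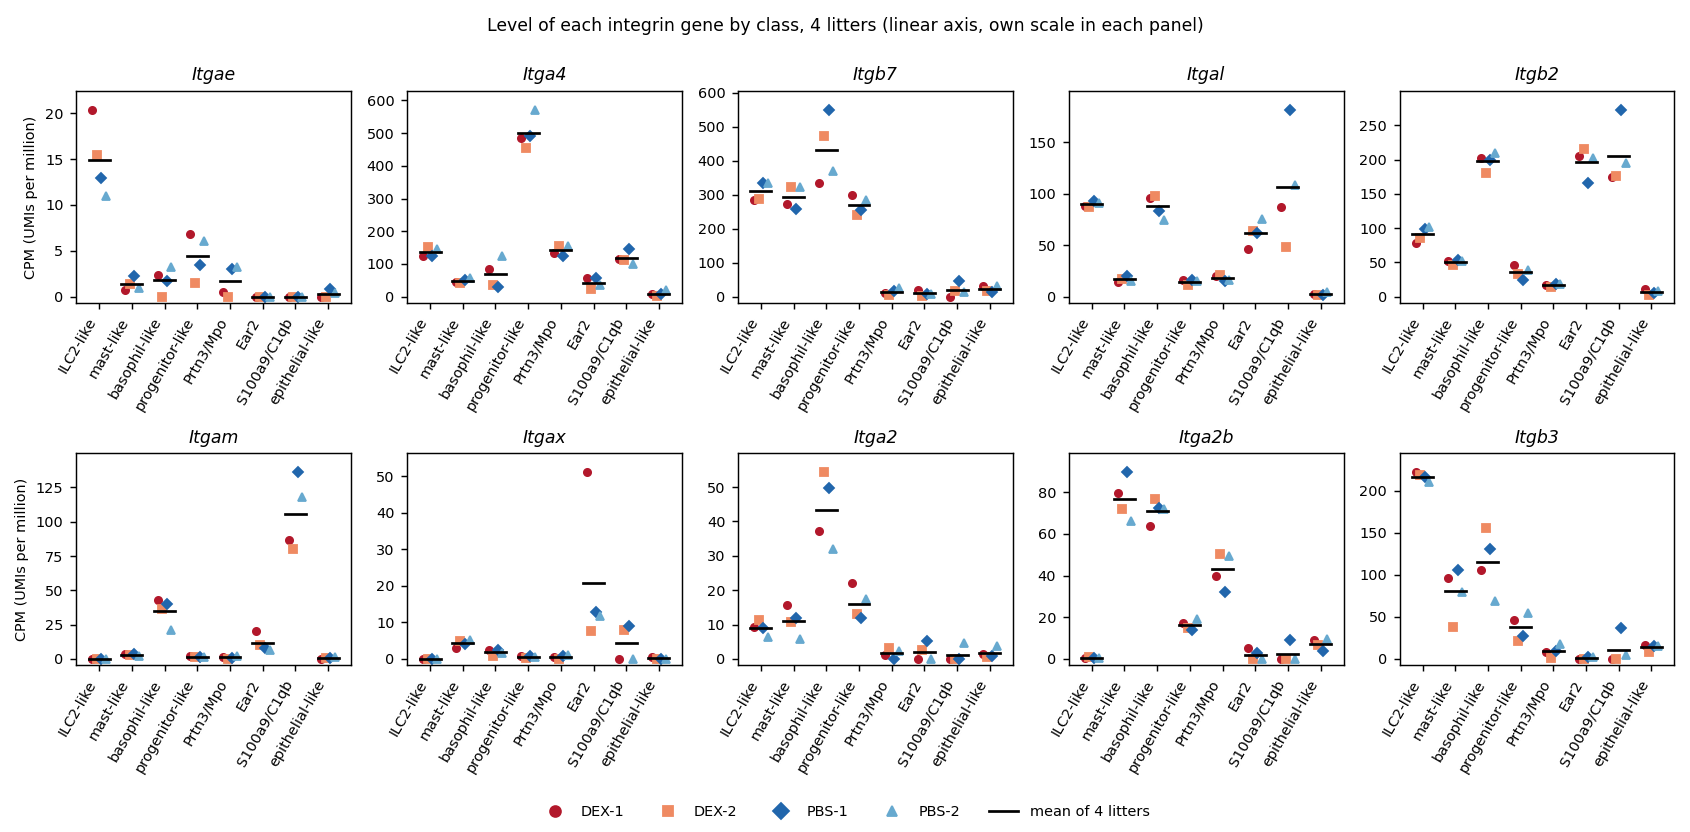
Level of the 10 integrin genes in 8 classes and clusters, with CPM on the vertical axis on a scale of its own in each panel, 1 point for each of the 4 litters and a bar at their mean. Itga4 stood highest in progenitor-like cells (454 to 571 CPM), Itgb3 in ILC2-like cells (210 to 222 CPM), and Itga2b was near 0 in ILC2-like cells but at 66.1 to 89.7 CPM in mast-like cells.

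Itgae, which encodes the alphaE chain (CD103; chr11:73090583-73147446 on GRCm38, plus strand), was highest in ILC2-like cells. The litters DEX-1, DEX-2, PBS-1 and PBS-2 had 20.4, 15.5, 12.95 and 10.9 CPM, a mean of 14.9 ± 4.07 CPM (SD, n = 4 litters). All 4 litters stood above every litter of the next class, the progenitor-like cells at 1.44 to 6.83 CPM. The mean was 11.1-fold that of mast-like cells, which held 21 UMIs of Itgae in total, and 8.33-fold that of basophil-like cells. At equal depth 2.39% of ILC2-like cells had a UMI (95% Wilson interval 1.81 to 3.14%) against 0.24% of mast-like cells (0.102 to 0.56%) and 0.226% of epithelial-like cells (0.0399 to 1.27%), and unthinned the share in ILC2-like cells was 7.94%. No UMI of Itgae was found in the 2 myeloid clusters.

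Itga4, the alpha4 chain (CD49d; chr2:79255426-79333123, plus strand), marked the progenitor-like cells. It was measured there at 484 and 454 CPM in DEX-1 and DEX-2 and at 490 and 571 CPM in PBS-1 and PBS-2, a mean of 500 ± 50.3 CPM (SD, n = 4 litters). No other class came near it, and the mean was 3.66-fold that of ILC2-like cells and 10.2-fold that of mast-like cells. ILC2-like cells had 124, 151, 124 and 147 CPM in the same order of litters, and mast-like cells 44.0, 41.2, 52.0 and 58.2 CPM. The Prtn3, Mpo and Car1 cluster (125 to 154 CPM) and B-like cells (118 to 147 CPM) lay in the range of ILC2-like cells. At 2000 UMIs per cell, 54.8% of progenitor-like cells had an Itga4 UMI (49.9 to 59.6%), 21.15% of ILC2-like cells, 8.05% of mast-like cells, 7.16% of basophil-like cells and 1.35% of epithelial-like cells.

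Itgb7, the shared beta partner of alphaE and alpha4 (chr15:102215995-102231944, minus strand), was high in ILC2-like, mast-like, progenitor-like and basophil-like cells. It was at 284, 288, 335 and 333 CPM in ILC2-like cells, at 273, 322, 258 and 323 CPM in mast-like cells and at 298, 241, 255 and 284 CPM in progenitor-like cells in DEX-1, DEX-2, PBS-1 and PBS-2. These 3 classes overlapped in their litter ranges, and basophil-like cells, at 334, 472, 549 and 370 CPM, overlapped with ILC2-like cells but not with mast-like cells. Mesenchymal-like cells were lower, at 92.1 to 142 CPM, and B-like cells, at a mean of 29.2 CPM, were near the 23.2 CPM of epithelial-like cells. The Prtn3, Mpo and Car1 cluster, which had as much Itga4 as ILC2-like cells, had a mean Itgb7 level of 14.7 CPM, 20-fold under mast-like cells, and both myeloid clusters together had 12.1 CPM. Those means lay below that of epithelial-like cells, from 75 and 24 Itgb7 UMIs. Whether they stood above free RNA was not tested.

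For 6 of the 10 genes a promoter window was at hand from RefSeq (GRCm38.p6). It ran from 250 bases before to 50 after the start of the gene in RefSeq. The position given with each gene comes from another annotation, GENCODE, whose starts can differ. By that position most of the Itga2b window lies inside the gene. The windows of 3 genes with different class patterns are shown. Itga4, high in progenitor-like cells, is at chr2:79255176-79255475 on the plus strand, Itgb7, high in ILC2-like and granular classes alike, at chr15:102231886-102232185 on the minus strand, and Itga2b, near 0 in ILC2-like cells, at chr11:102469834-102470133 on the minus strand. Each is written 5′ to 3′ on the strand of its gene, and capitals mark a match to a searched motif.
Itga4: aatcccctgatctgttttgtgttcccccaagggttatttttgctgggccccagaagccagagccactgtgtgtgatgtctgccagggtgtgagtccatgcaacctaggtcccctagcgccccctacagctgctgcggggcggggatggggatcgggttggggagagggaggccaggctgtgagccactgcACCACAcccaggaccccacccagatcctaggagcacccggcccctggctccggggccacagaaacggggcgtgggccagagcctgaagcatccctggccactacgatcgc
Itgb7: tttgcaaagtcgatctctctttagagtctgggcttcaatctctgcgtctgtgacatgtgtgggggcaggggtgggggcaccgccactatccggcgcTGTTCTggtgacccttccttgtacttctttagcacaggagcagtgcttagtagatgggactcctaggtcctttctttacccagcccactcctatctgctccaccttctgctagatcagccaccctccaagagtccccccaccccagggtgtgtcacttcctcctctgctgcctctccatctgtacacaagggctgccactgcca
Itga2b: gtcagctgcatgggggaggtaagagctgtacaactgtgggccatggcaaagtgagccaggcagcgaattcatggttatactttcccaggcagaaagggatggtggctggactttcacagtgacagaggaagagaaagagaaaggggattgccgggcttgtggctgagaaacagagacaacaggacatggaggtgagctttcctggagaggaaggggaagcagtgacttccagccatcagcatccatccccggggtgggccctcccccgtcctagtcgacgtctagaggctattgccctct

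On both strands 5 motifs were searched, AGATAA for GATA factors, TGTGGT for RUNX factors, ACAGGAA for ETS factors, GTCTAGAC for SMAD factors and AGAACA for the glucocorticoid receptor, and none of them is contained in another. The Itga4 window held 1 match, to the RUNX letters on the reverse strand, which 16.8% of all 32851 promoter windows held. The Itgb7 window held 1 match, to the glucocorticoid receptor letters on the reverse strand, found in 19% of all windows. The Itga2b window held none of the 5. Of the windows not shown, that of Itga2 held 1 match, to the glucocorticoid receptor letters, and that of Itgam held 0. The Itgax window held 3, to the GATA, glucocorticoid receptor and RUNX letters. GATA letters were found in 11.2% of windows, ETS letters in 8.67% and SMAD letters in 0.213%. These are matches of letters alone.

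Itgal, the alphaL chain of LFA-1 (chr7:127296260-127335138, plus strand), separated ILC2-like and basophil-like cells from mast-like and progenitor-like cells. ILC2-like cells were at 88.3, 87.5, 92.9 and 90.8 CPM, with a mean of 89.9 CPM, and basophil-like cells at 96.3, 98.04, 83.1 and 75.0 CPM. The 2 classes overlapped with each other and stood 5.38-fold and 5.27-fold above mast-like cells (13.8 to 20.0 CPM). Progenitor-like cells, at a mean of 14.6 CPM, did not differ from mast-like cells beyond the range of litters. Both myeloid clusters also stood above mast-like cells. The S100a9 and C1qb cluster, at 48.1 to 182 CPM, overlapped with ILC2-like and basophil-like cells and had the highest mean, 106 CPM. The Ear2 cluster was at 46.0 to 75.9 CPM.

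Itgb2, the beta2 chain (CD18; chr10:77530252-77565708, plus strand), was highest in basophil-like cells and the myeloid clusters. Basophil-like cells had 202, 181, 199 and 209 CPM, the Ear2 cluster 204, 216, 166 and 203 CPM and the S100a9 and C1qb cluster 174, 176, 272 and 195 CPM, so that these 3 could not be ordered. ILC2-like cells followed at 77.9, 85.9, 98.3 and 102 CPM, mast-like cells at 52.3, 45.9, 53.4 and 51.9 CPM and progenitor-like cells at 46.3, 32.7, 25.1 and 38.6 CPM. Basophil-like cells thus held 2.18-fold the level of ILC2-like cells and 3.89-fold that of mast-like cells, without overlap in either pair. Epithelial-like cells had 6.63 CPM.

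Itgam, the alphaM chain of Mac-1 (CD11b; chr7:128062640-128118491, plus strand), and its neighbour Itgax, the alphaX chain (CD11c; chr7:128129547-128150657, plus strand), were almost absent from ILC2-like cells. Itgam had 1 UMI and Itgax 0 UMIs over all ILC2-like cells, where a count of 0 allows up to 3 UMIs, or 0.576 to 0.786 CPM per litter. Basophil-like cells had Itgam at 42.9, 36.5, 39.9 and 20.7 CPM, with all 4 litters above the 1.958 to 3.71 CPM of mast-like cells and a mean 11.8-fold higher. The S100a9 and C1qb cluster had 87.0, 80.2, 136 and 118 CPM of Itgam, 9.36-fold the mean of the Ear2 cluster. Within these myeloid clusters, finer grouping gave a neutrophil-like state of 22 cells with 19 Itgam UMIs and a macrophage or monocyte-like state of 44 cells with 31, both having passed a sort meant to remove CD11b.

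Itgax was low in every class. Mast-like cells had 3.01, 4.75, 3.998 and 5.14 CPM from 68 UMIs, above the 0.36 to 0.758 CPM of progenitor-like cells in all litters. The Ear2 cluster had 51.1 CPM in DEX-1 but 7.70, 12.9 and 11.8 CPM in the other 3 litters, from 27 UMIs in all, so that its mean of 20.9 CPM rested on DEX-1. The annotation also places a gene model, Gm49368, on the same strand over Itgam, and it was not among the rows of the matrix.

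Itga2, the alpha2 chain (CD49b; chr13:114833081-114932100, minus strand), was highest among the blood classes in basophil-like cells, where CD49b is a common surface marker. The litters had 37.1, 54.4, 49.9 and 31.9 CPM, all above the 5.87 to 15.6 CPM of mast-like cells and the 6.33 to 11.3 CPM of ILC2-like cells. The means differed 3.93-fold and 4.84-fold. Endothelial-like cells, at 45.5 CPM, had as much.

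Itga2b, the alphaIIb chain (CD41; chr11:102453297-102470122, minus strand), was a gene of the mast and basophil side. Mast-like cells had 79.6, 72.0, 89.7 and 66.1 CPM and basophil-like cells 63.8, 76.6, 72.3 and 71.8 CPM, overlapping with each other. The Prtn3, Mpo and Car1 cluster was lower, at 39.8, 50.2, 32.2 and 49.3 CPM, and progenitor-like cells lower again, at 13.9 to 19.3 CPM. Mast-like cells thus exceeded progenitor-like cells 4.70-fold. ILC2-like cells held 10 UMIs of Itga2b in total, at 0.384 to 0.786 CPM per litter, and the mean of mast-like cells was 133-fold higher; epithelial-like cells, at 7.15 CPM, also stood above ILC2-like cells.

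Itgb3, the beta3 chain (CD61; chr11:104608000-104670476, plus strand), did not follow its platelet partner. It was highest in ILC2-like cells, at 222, 218, 216 and 210 CPM in DEX-1, DEX-2, PBS-1 and PBS-2, with an SD of 5.12 CPM across litters. Basophil-like cells had 106, 156, 130 and 68.6 CPM, mast-like cells 96.7, 38.2, 106 and 79.8 CPM and progenitor-like cells 46.3, 21.6, 27.1 and 54.3 CPM. The mean of ILC2-like cells was 2.70-fold that of mast-like cells and 5.81-fold that of progenitor-like cells, with no overlap. At equal depth 34.6% of ILC2-like cells had an Itgb3 UMI, 29.1% of basophil-like cells, 10.5% of mast-like cells and 3.39% of epithelial-like cells.

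**Figure D2:**
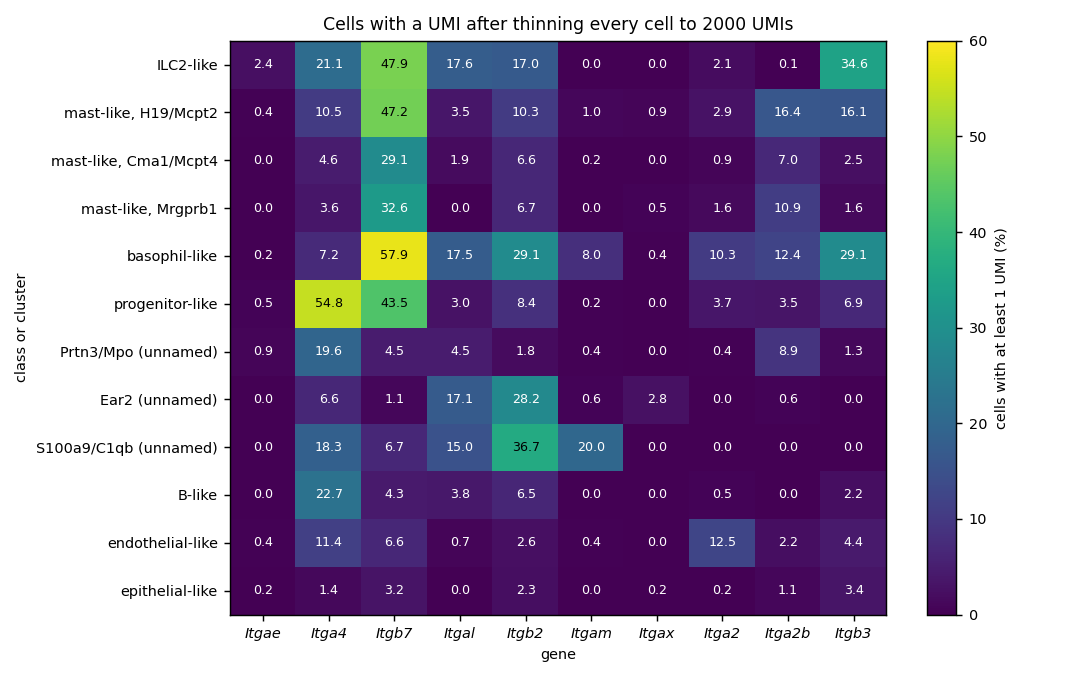
Share of cells with at least 1 UMI of each integrin gene after every cell was thinned to 2000 UMIs, in percent, written in each cell of the grid and shown by colour, with classes and clusters in rows and genes in columns. Itgb7 was found in 47.9% of ILC2-like, 40.2% of mast-like, 57.9% of basophil-like and 43.5% of progenitor-like cells, against 3.16% of epithelial-like cells.

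The partners of these chains that are not among the 10 genes differed by class as well. Itgav, whose alphav chain can pair with beta3, reached 163 to 183 CPM in ILC2-like cells and only 12.2 to 14.6 CPM in mast-like and 5.80 to 11.2 CPM in basophil-like cells. ILC2-like cells thus held transcripts of Itgb3 and Itgav with almost none of Itga2b, and mast-like cells held Itgb3 and Itga2b with little Itgav. Itgb1, the beta1 chain that can join alpha2 and alpha4, was highest of these classes in basophil-like cells, at 316 to 714 CPM, against 117 to 128 CPM in mast-like and 56.6 to 63.0 CPM in ILC2-like cells. Itga9, an alpha chain close in structure to alpha4, was at 108 to 134 CPM in mast-like cells and at 0.959 to 1.78 CPM in ILC2-like cells.

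Transcripts of the 2 chains of a receptor were also counted in the same cell at 2000 UMIs. Itga4 and Itgb7 were found together in 99 of 405 progenitor-like cells (24.4%), 193 of 2052 ILC2-like cells (9.41%) and 71 of 2087 mast-like cells (3.40%), and in 0 of 224 cells of the Prtn3, Mpo and Car1 cluster, which allows up to 3 cells. Itgb7 was about as frequent in cells with Itga4 as in cells without it. The shares were 44.6% and 42.1% in progenitor-like, 44.5% and 48.8% in ILC2-like and 42.3% and 40.0% in mast-like cells. Itgae and Itgb7 were found together in 16 of the 49 ILC2-like cells with an Itgae UMI (32.7%), while 48.3% of the ILC2-like cells without one had Itgb7. Itgal and Itgb2 were found together in 81 ILC2-like cells, where 22.4% of cells with Itgal and 15.8% of those without had Itgb2. Itga2b and Itgb3 shared 41 mast-like cells and 13 basophil-like cells and no ILC2-like cell, where only 3 cells had an Itga2b UMI. A missing UMI in a cell at this depth does not show that the chain was absent.

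The ILC2-like cells were then divided into states. A cycling state (Ube2c, Birc5; 403 cells), a state led by Gsto1, Adam8 and Csf2 (558 cells), a state led by Cd7, Ms4a4b and Tcf7 (353 cells), a state led by Ctla2b, Ctla2a and Calca (495 cells) and a state led by Pla2g7 and Atp4a that also carried Hdc, Cpa3 and Gata1 (219 cells) were compared. The last 2 did not meet the naming limits on their own, since their 10 leading genes held no ILC2 marker and 1 and 2 markers of another type, and they are kept here as divisions of the ILC2-like class. By CPM, Itgae was highest in the Cd7 and Tcf7 state, at a mean of 41.7 CPM. The litters had 52.0 and 37.8 CPM for DEX and 56.4 and 20.7 CPM for PBS. The cycling state followed at 20.6, 13.5, 15.2 and 14.9 CPM, the Gsto1 and Csf2 state at 12.9, 10.01, 5.64 and 11.03 CPM and the Ctla2a and Calca state at 1.25 to 4.72 CPM. None of these neighbours overlapped. The Cd7 and Tcf7 state exceeded the Ctla2a and Calca state 15.2-fold, but the latter held only 9 Itgae UMIs. The Pla2g7 and Atp4a state had 1 Itgae UMI, a mean of 1.04 CPM, and overlapped with the Ctla2a and Calca state. The Cd7 and Tcf7 state held 111 of the Itgae UMIs of ILC2-like cells (42.2%) and the cycling state 96 (36.5%).

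For the cycling state an overlapping gene has to be read beside Itgae. Haspin, a mitotic kinase gene, lies inside Itgae on the opposite strand, and it was at 13.8 CPM in the cycling state, 5.01 CPM in the Gsto1 and Csf2 state, 3.45 CPM in the Cd7 and Tcf7 state and 0.934 CPM in the Ctla2a and Calca state. The strand setting of the counting is not given in the sources used here, and its part in the Itgae level of cycling cells was not tested. Haspin was not highest where Itgae was highest.

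Itga4 followed the same order as Itgae at its top. The Cd7 and Tcf7 state had 199, 234, 250 and 259 CPM, the cycling state 120 to 186 CPM and the Gsto1 and Csf2 state 91.3 to 110 CPM, without overlap, while the Ctla2a and Calca state (72.7 to 111 CPM) overlapped with the Gsto1 and Csf2 state. Itgb3 divided the states in another way, with 242 to 316 CPM in the Cd7 and Tcf7 state, 209 to 292 CPM in the Pla2g7 state and 197 to 276 CPM in the Ctla2a and Calca state, all above the 169 to 193 CPM of the Gsto1 and Csf2 state and the 164 to 183 CPM of cycling cells. Itgb7 was lowest in cycling cells, at 237 to 273 CPM, and the other 4 states overlapped with their neighbours between 254 and 464 CPM. Itgal (state means of 73.4 to 103 CPM) and Itgb2 (79.2 to 97.5 CPM) showed no neighbouring states apart, but Itgal in cycling cells, at 68.1 to 77.8 CPM, lay under all litters of the Cd7 and Tcf7, Gsto1 and Csf2, and Ctla2a and Calca states.

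**Figure D3:**
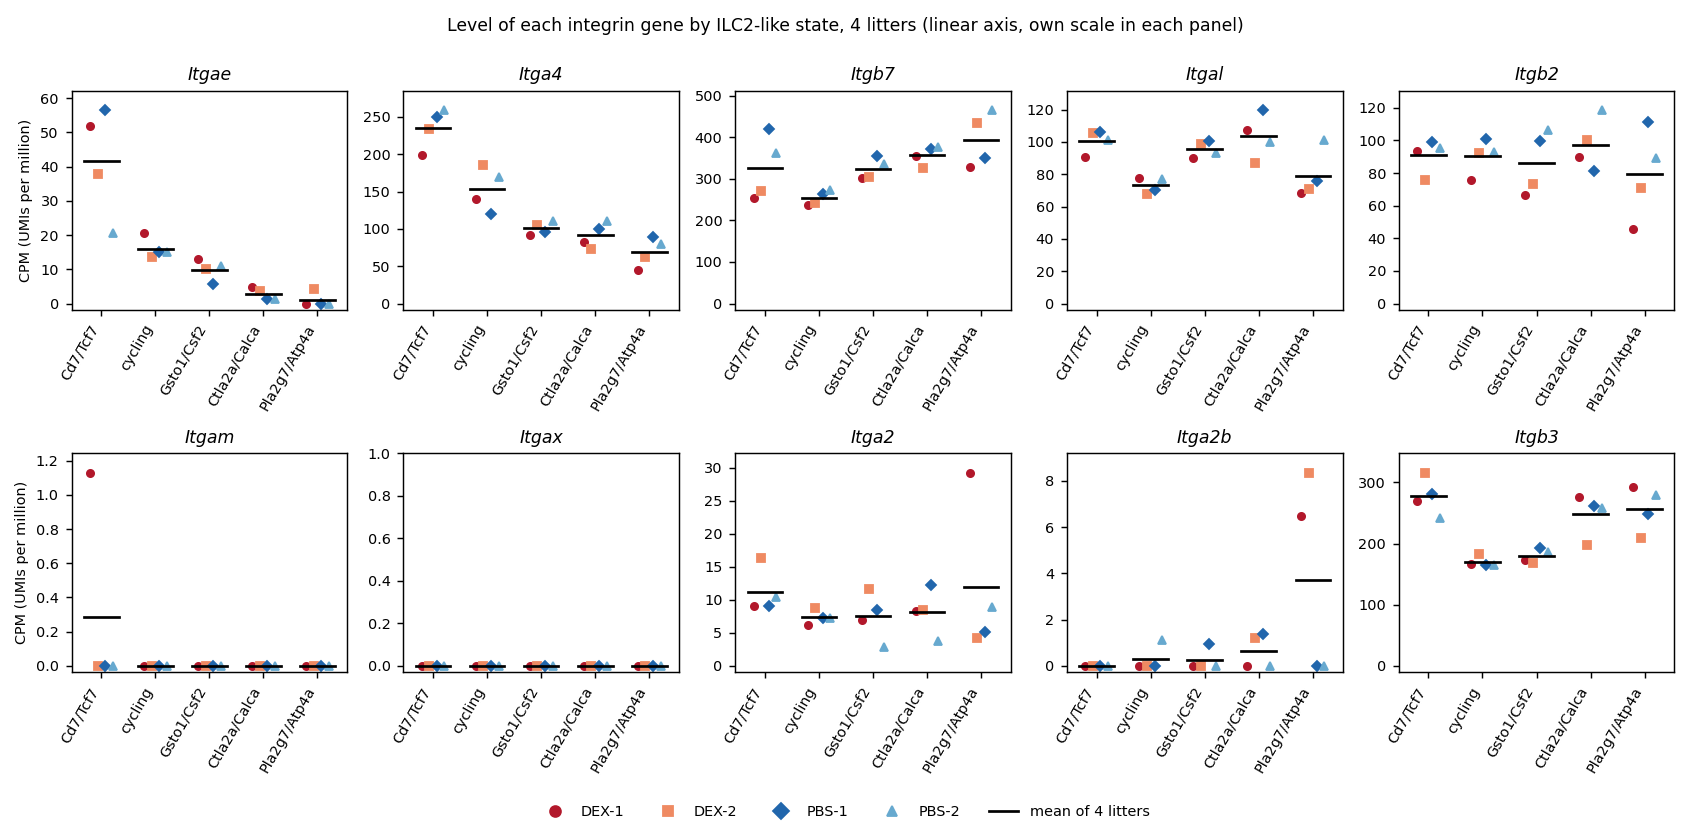
Level of the integrin genes in the 5 large states of ILC2-like cells, with CPM on the vertical axis on a scale of its own in each panel, 1 point for each litter and a bar at the mean. Itgae and Itga4 stood highest in the Cd7 and Tcf7 state, at means of 41.7 and 235 CPM, whereas Itgb2 stayed within overlapping ranges.

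Mast-like cells held 3 clusters, and Itgb3, Itga2b, Itgb7 and Itgal were higher in 1 of them than in both others. The large cluster led by H19 and Mcpt2 (1307 cells) had 125, 53.8, 158 and 118 CPM in DEX-1, DEX-2, PBS-1 and PBS-2, a mean of 114 CPM. The cluster led by Cma1 and Mcpt4 (820 cells) had a mean of 14.7 CPM and that led by Mrgprb1 and Mrgprb2 (194 cells) of 7.14 CPM, close to the 13.6 CPM of epithelial-like cells. The first exceeded the others 7.74-fold and 15.9-fold, with no overlap. The Itgb3 mean of the Mrgprb1 and Mrgprb2 cluster came from 15 UMIs, 14 of them in PBS-1. Itga2b was at 92.5, 39.7 and 55.1 CPM in the 3 clusters, Itgb7 at 345, 185 and 184 CPM and Itgal at 21.6, 7.57 and 5.16 CPM as means, also without overlap between the first cluster and either of the others. The Itgal mean of 5.16 CPM came from 9 UMIs. The Cma1 and Mcpt4 cluster was the shallowest, at a median of 3543 UMIs per cell.

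For each gene, the 3 genes of most similar pattern over 12 classes and states were sought among 9859 genes, by Pearson's r of log2(CPM + 1). These were the large states of ILC2-like cells and the other named classes. The unnamed clusters were left out, among them the S100a9 and C1qb cluster, where Itgam was highest. The points share 1 library and differ in depth, genes are not replicates, and no p-value applies. Those of Itgb7 included Tnfaip3 (r = 0.99) and Lat (0.971), genes of immune receptor signalling. Itgb3 was closest to Hcst (0.977), Il7r (0.973), the chain of the IL-7 receptor, and Rinl (0.963). Itga2b was closest to Cd200r3 (0.982), a receptor of basophils and mast cells, Rab44 (0.98) and Csf2rb (0.968). Itgal was closest to P2ry10 (0.972), Zc3h12a (0.968) and Gna15 (0.962), and Itgb2 to B4galnt1 (0.971), Fmnl1 (0.959) and Prr13 (0.957). Itgae was closest to Haus6 (0.886), Cd28 (0.879) and Rmi2 (0.875), and Itga4 to Cct2 (0.947), Snhg4 (0.942) and Eif3i (0.934). Itga2 was closest to Nin (0.935), Ppp2r5c (0.909) and Klf7 (0.897), and Itgam to Aqp9 (0.988), Clec4e (0.978) and Olr1 (0.977), while Itgax lay under 20 CPM in every point. Among the 10 genes themselves, r was 0.94 for Itgal with Itgb2 and -0.40 for Itga2b with Itgb3.

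DEX and PBS litters were compared within each class, to ask whether the maternal glucocorticoid was followed by different integrin levels in fetal cells. No integrin gene passed an edgeR quasi-likelihood adjusted p of 0.05 in any class. The test covered 7 of the 10 genes in ILC2-like cells, where 2.45% of all 10647 genes were called (261 genes), and 9 genes in mast-like cells, where 0% of 10524 genes were called. It covered 8 genes in basophil-like cells, where 0% of 7311 genes were called, and 7 genes in progenitor-like cells, where 0.0554% of 9029 genes were called (5 genes). The remaining members were too low to enter. At an unadjusted p under 0.05 there were 3 integrin genes and 1330 genes of all in ILC2-like cells, 1 and 622 in mast-like cells, 0 and 120 in basophil-like cells and 0 and 466 in progenitor-like cells. DESeq2 also called 0 integrin genes in every class, with 108, 7, 0 and 2 genes of all.

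In ILC2-like cells the DEX and PBS litters did not overlap for 6 of the 7 genes tested, beside 42.6% of all genes, although the differences were small. Itgae was at 20.4 and 15.5 CPM in the DEX litters and 12.95 and 10.9 CPM in the PBS litters, a log2 difference of 0.61 ± 0.20 (SE) with an adjusted p of 0.162 by edgeR and a 95% interval of 0.18 to 1.05. Both DEX litters were higher. Itgb7 was at 284 and 288 CPM against 335 and 333 CPM, a log2 difference of -0.22 ± 0.07 with an edgeR adjusted p of 0.173 and an interval of -0.37 to -0.06, and Itgb2 was at 77.9 and 85.9 CPM against 98.3 and 102 CPM, a log2 difference of -0.28 ± 0.10 (edgeR adjusted p = 0.178). The partners alphaE and beta7 thus lay on opposite sides, and neither passed the test. Itga2 (0.46), Itgb3 (0.06) and Itgal (-0.05) had log2 differences with adjusted p of 0.519 or more in edgeR, and Itga4 overlapped, at a log2 difference of 0.02 with an interval of -0.22 to 0.26.

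The Itgae value in ILC2-like cells depended on the litters kept, and the makeup of the class differed between the groups. Without DEX-2 the log2 difference was 0.77 and the edgeR adjusted p 0.0414. It was 0.41 without DEX-1 (adjusted p = 0.59), 0.49 without PBS-2 (0.379) and 1.17 when cells were thinned (0.305), and over all 13 alternatives the adjusted p ran from 0.0414 to 1. The Cd7 and Tcf7 state, where Itgae was highest, made up 21.3% and 23.5% of the ILC2-like cells of the DEX litters and 12.8% and 11.2% of those of the PBS litters. Within that state the litters overlapped, at 52.0 and 37.8 CPM for DEX and 56.4 and 20.7 CPM for PBS. The part of the state's share in the Itgae difference was not tested.

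In mast-like cells the groups did not overlap for 1 of the 9 genes tested, beside 33.7% of all genes. That gene was Itga4, at 44.0 and 41.2 CPM in the DEX litters and 52.0 and 58.2 CPM in the PBS litters, a log2 difference of -0.36 ± 0.14 (edgeR adjusted p = 0.751). Itgb3 overlapped, and its 2 DEX litters were further apart from each other (96.7 and 38.2 CPM) than the 2 groups were. The low litter, DEX-2, also had the lowest Itgb3 in the H19 and Mcpt2 cluster, itself part of the mast-like class. The same held in progenitor-like cells, epithelial-like cells (7.81 CPM) and endothelial-like cells (11.5 CPM). DEX-2 was not the lowest in ILC2-like cells, where it had 218 CPM, or basophil-like cells, where its 156 CPM was the highest of the 4 litters. Nor was it the lowest in mesenchymal-like cells (36.5 CPM against 27.6 CPM in PBS-1) or B-like cells (9.82 CPM against 0 CPM in DEX-1). The log2 difference of Itgb3 in mast-like cells was -0.45 with an edgeR adjusted p of 0.971, but -1.27 with an adjusted p of 4.66e-07 without DEX-1 and 0.08 without DEX-2, and over all 12 alternatives the adjusted p ran from 4.66e-07 to 1. It was called in 2 of these alternatives, and its sign changed when DEX-2 was left out.

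In basophil-like cells 1 of the 8 genes tested did not overlap, beside 26.4% of all genes. Itgal was at 96.3 and 98.04 CPM in the DEX litters against 83.1 and 75.0 CPM in the PBS litters, a log2 difference of 0.30 ± 0.22 (edgeR adjusted p = 0.999). For several genes these litters fell across the treatment. Itga4 was at 85.9 CPM in DEX-1 and 124 CPM in PBS-2 but 37.2 CPM in DEX-2 and 28.3 CPM in PBS-1, and Itgb7, Itga2 and Itgb3 were higher in DEX-2 and PBS-1 than in the other 2 litters. DEX-1 and PBS-2 also had the fewest basophil-like cells, 95 and 62 against 175 and 150.

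In progenitor-like cells 1 of the 7 genes tested did not overlap, beside 33.3% of all genes. Itga4, their most marked integrin gene, was at 484 and 454 CPM in the DEX litters against 490 and 571 CPM in the PBS litters, a log2 difference of -0.15 ± 0.12 with an interval of -0.40 to 0.10 and an edgeR adjusted p of 1. The interval held both lower and slightly higher levels.

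Whether DEX and PBS differed in another way in ILC2-like than in mast-like cells was tested directly, in a fit with the litter as a term. None of the 10 genes passed, beside 0.173% of all 11592 genes (20 genes called by edgeR; 671 genes and 1 integrin gene at an unadjusted p under 0.05; 6 genes and 0 integrin genes by DESeq2). The integrin gene was Itga4, with a difference of 0.39 ± 0.17 on the log2 scale between the 2 classes and an edgeR adjusted p of 0.801. Itgb3 had a difference of 0.58 ± 0.30 with an edgeR adjusted p of 0.881, which became 1.32 with an adjusted p of 0.00557 without DEX-1 and 0.76 with 0.0384 without PBS-2, and -0.03 without DEX-2; over all 11 alternatives the adjusted p ran from 0.00557 to 1.

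**Figure D4:**
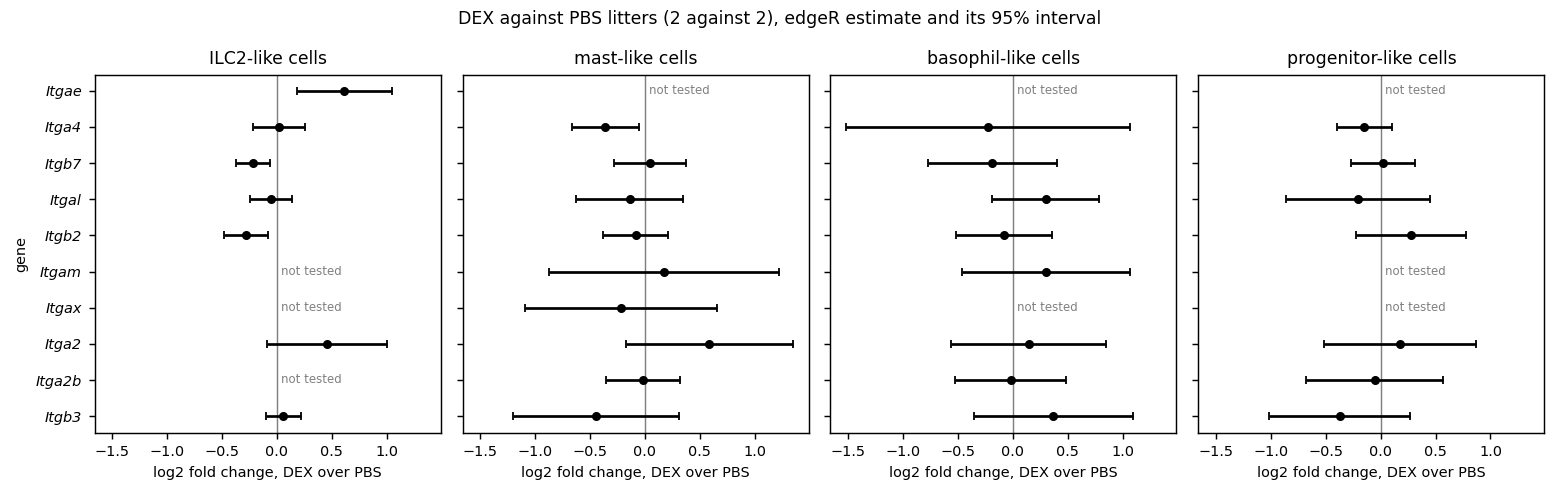
Log2 difference of DEX over PBS litters for each tested integrin gene in each class, by edgeR, with 95% intervals. The intervals of Itgae, Itgb7 and Itgb2 in ILC2-like cells and of Itga4 in mast-like cells lay away from 0, but none passed after adjustment over all genes.

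Genes that act on integrins were read beside them, from 5 lists. In ILC2-like cells, 1 of the 26 tested genes of integrin activation was higher in DEX litters and 1 lower (median log2 difference -0.06), and of 17 genes that signal downstream of bound integrins 1 was higher and 1 lower (median -0.05). None of 5 other integrin chains (median 0.12), 8 ligands (0.08) or 12 genes of TGF-beta signalling (-0.03), the cytokine known to raise alphaE on lymphocytes, was called. These counts stand beside 2.45% of all 10647 genes called by edgeR in ILC2-like cells. The median of the 7 tested integrin genes was 0.02 and that of all genes 0.0034. In mast-like, basophil-like and progenitor-like cells no gene of these lists was called by edgeR, beside 0%, 0% and 0.0554% of all genes. List medians there ran from -0.06 to 0.15, from -0.02 to 0.12 and from -0.01 to 0.27.

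The 4 genes called in ILC2-like cells act on both sides of the integrin. Rasgrp2, which switches on Rap1 and with it integrins, was higher, at 126 and 128 CPM in the DEX litters against 97.3 and 100.4 CPM (log2 difference 0.37 ± 0.09, edgeR adjusted p = 0.0353). Rapgef6, another exchange factor of Rap proteins, was lower, at 152 and 149 CPM against 213 and 209 CPM (-0.47 ± 0.08, edgeR adjusted p = 0.00425). Src, a kinase downstream of bound integrins, was higher, at 44.3 and 42.7 CPM against 28.2 and 27.2 CPM (0.66 ± 0.13, edgeR adjusted p = 0.0151). Vav3, a signalling protein of the Vav family, was lower, at 15.9 and 15.5 CPM against 36.6 and 23.6 CPM (-0.91 ± 0.20, edgeR adjusted p = 0.0305). Within each list, 1 gene rose and 1 fell.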

How the data were processed

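The authors sorted fetal lung cells from 4 litters, labelled each litter with a hashtag antibody, made 1 pooled 10x 5′ library and deposited raw UMI counts per gene and hashtag for each barcode, from Cell Ranger 7 on mm10 per the labels. Other settings of the counting, among them the strand, the sources used here do not give.

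From these counts, litters were called with HTODemux (Seurat 5.3.0, quantile 0.99). Barcodes with under 200 genes or over 5% mitochondrial UMIs were dropped, as were 736 hashtag doublets and 2405 barcodes without a call. Same-litter doublets, an expected 3.38% of singlets, stay in, and 226 singlets over a Scrublet threshold were left out in an alternative. Cells were clustered in scanpy 1.11.5 (2000 variable genes, 20 components, 15 neighbours, resolution 0.5) without the integrin genes, Gata3, Nr3c1, Il1rl1 and sex-linked genes. A cluster was named from at least 3 markers found in 25% of its cells and a mean marker share of 30%. No other type could exceed 60% of that share, the mast, basophil and progenitor types not being counted against each other. Its 10 leading genes also had to hold no marker of another type, or more of its own than of any other type. The Ear2, S100a9 and Prtn3 clusters met the other limits but not this last. These limits were chosen with the clusters already in view, and 11.6% of singlets stayed unnamed. States are finer clusters within a class.

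UMIs were summed per class and litter, from 627010 to 5211430 per sum, and ILC2-like, mast-like, basophil-like and progenitor-like sums, the classes chosen for a test, each with at least 30 cells in every litter, were tested with edgeR 4.0.16 (R 4.3.3, TMM, quasi-likelihood, two-sided, Benjamini-Hochberg over all genes tested). DESeq2 1.42.0 was an alternative. Cells are not replicates. Macrophage or monocyte-like cells had no named cluster, so the test planned for them was run under 1 alternative alone. The scripts were tested on simulated data. All 10 genes are named in each comparison, with the 3 genes of most similar pattern for each and every called gene of 5 lists (activation, downstream signalling, other chains, ligands, TGF-beta signalling); 1 of the genes of similar pattern is not reported here. The genes and lists were chosen with earlier results of these data known. Intervals of shares and floors cover counting error only.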

Additional observations from a re-analysis of the deposited data

How the results depend on the processing

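The count of integrin genes whose litter ranges parted ILC2-like from mast-like cells was 8 in every alternative run, and no integrin gene was called in basophil-like or progenitor-like cells under any. Leaving out 1 litter gave 0 to 1 called integrin genes in ILC2-like cells, 0 to 1 in mast-like cells and 0 to 1 for the difference between these classes, the cases given with Itgae and Itgb3 above. Over all genes, leaving out 1 litter gave 305 to 428 calls in ILC2-like cells (261 with all), 1 to 174 in mast-like cells (0), 1 to 25 in basophil-like cells (0), 24 to 70 in progenitor-like cells (5) and 36 to 65 for the difference (20). DESeq2 called 108, 7, 0 and 2 genes in the 4 classes and 6 for the difference, no filter on low genes 531, 167, 17, 53 and 99, and thinning 79 in ILC2-like and 15 in mast-like cells. Leaving out cycling cells gave 149 in ILC2-like cells. A higher mitochondrial limit, leaving out cells over the Scrublet threshold and classes at resolution 1 gave 1 each in mast-like cells. The last 2 gave 2 each in progenitor-like cells, and a ratio rule for hashtags gave 1. At the higher mitochondrial limit alone, macrophage or monocyte-like cells could be tested, with 3 genes and 0 of 4 integrin genes called by edgeR.

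Deviations of litters of the same number had correlations of 0.09, 0.177, -0.319 and -0.0847 in ILC2-like, mast-like, basophil-like and progenitor-like cells. The labels tie the numbers to nothing shared, and they were not taken as pairs. With this number as a replicate block, 426, 249, 0 and 27 genes were called in the 4 classes, and 1 integrin gene, Itgb3 in mast-like cells (log2 difference -0.53, edgeR adjusted p 0.00203). The crossed pairing in basophil-like cells, chosen after seeing the data, gave 5 genes and 0 integrin genes.

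Without DEX-1 the log2 difference of Itgb3 was -1.27 in mast-like cells, -0.90 in progenitor-like cells and 1.32 between ILC2-like and mast-like cells. Of 479 values of single integrin genes under an alternative, 53 had the other sign, none of them called, and 47 of these started from a difference under 1 SE. The widest range within a class was that of Itga4 in basophil-like cells, -1.01 to 1.05. The 6 that started from at least 1 SE were Itgb3 in mast-like cells without DEX-2 (0.0837), Itgb3 in progenitor-like cells without DEX-2 (0.18) and without PBS-2 (0.24), Itga4 thinned (0.11) and Itgb2 by the ratio rule (-0.12) there, and the difference of Itgb3 between classes without DEX-2 (-0.0269). The cause was not tested. With 2 litters in a group, precision is set by litters, and Itgam, Itgax and Itga2b in ILC2-like cells by depth.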

Other observations

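Around the integrins, ligands and activators also divided by class. Cdh1, which encodes E-cadherin, the ligand of alphaE with beta7, was measured at 60.4 to 104 CPM in the basophil-like class, while ILC2-like cells had 0 to 0.849 CPM and mast-like cells 0.453 to 1.47 CPM. Basophil-like cells, whose Itgae level was 1.79 CPM, therefore held the transcript of the ligand with little of the receptor's alpha chain. Skap1, an adaptor of integrin activation in lymphocytes, had 587 to 655 CPM in ILC2-like and 45.0 to 54.3 CPM in mast-like cells. Of the exchange factors upstream of Rap1 and Ras, Rasgrp1 had 73.8 to 95.2 CPM in ILC2-like and 2.26 to 6.28 CPM in mast-like cells, while Rasgrp4 was at 3.41 to 7.21 CPM and 49.1 to 55.0 CPM, the reverse order.

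A small state of ILC2-like cells, 32 cells led by Plcl1 and Trps1 with a median of 2274 UMIs, had 2025, 976, 1246 and 1864 CPM of Itgb3 in DEX-1, DEX-2, PBS-1 and PBS-2, from 124 UMIs. Its mean of Itga4 was 636 CPM, from 53 UMIs, above every larger state. The litters had 245, 507, 879 and 913 CPM in the same order, DEX-1 from 4 UMIs. Means of Itgb7, Itgal, Itgb2 and Itga2 were also above those of the larger states, at 601, 277, 175 and 132 CPM. They came from 50, 24, 14 and 11 UMIs.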
